A study of Mus musculus with 18 samples.

Results

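Antiviral interferon stimulated genes encode the proteins with which a cell resists viral infection after it has sensed interferon. The 43 mouse genes described here were listed by symbol from their known induction by interferon, leaving out the interferon regulatory factors, the guanylate binding proteins and the MHC genes. All 43 matched a single Ensembl identifier among the 45706 genes of the deposited tables. Of these, 41 were among the 12255 genes tested.

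Interferon binds its receptor at the cell surface and activates the Janus kinases, which phosphorylate the STAT proteins. The STAT proteins then enter the nucleus and bind promoters, at interferon stimulated response elements (ISREs) after type I interferon and at gamma activated sites (GAS) after interferon gamma. The induced genes code for sensors of foreign RNA, for enzymes that block translation or degrade RNA, for membrane proteins that hinder viral entry or release, and for feedback inhibitors. CD8+ T cells respond to type I interferons, and they themselves secrete interferon gamma when their T cell receptor is engaged.

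The cells were CD8+ T cells from OT-I mice, labelled wild type, whose T cell receptor recognizes an ovalbumin peptide, cultured with IL-7 and IL-15. Repeat peptide stimulated cells, an in vitro model of exhaustion, received 10 ng/ml of OVA peptide daily for 5 days, whereas single peptide stimulated cells met it only for the first 48 hours. From day 5 both were treated with 1 µM ibrutinib, an inhibitor of BTK and of other Tec family kinases, or with the solvent DMSO, until harvest on day 8, and the repeat peptide cells kept OVA peptide in their medium during this treatment. RNA-seq gave 4 libraries of repeat peptide cells with DMSO, 5 of repeat peptide cells with ibrutinib, 5 of single peptide cells with DMSO and 4 of single peptide cells with ibrutinib. Cultures from experiments A to D contributed a library to every group. Experiment E gave 1 library, of repeat peptide cells with ibrutinib, and experiment F also 1, of single peptide cells with DMSO. The experiment was read from the genotype entry of the labels. That entry reads "INHB-1 left over" for experiment A and "PKC igoni-2" for experiment F, and it names a btk knockout for experiments B to E. The strain entry, in contrast, is wild type for all 18 libraries. The cells were taken as wild type from the strain entry, and the sources used here do not settle what the genotype entry means. The age of the mice is not given in the sources used here.

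Total expected counts ranged from 23445922 to 51995372 per library (median 27420965). The summed level of 7 CD8 T cell markers was 2989 to 4127 TPM, the authors' transcript abundance scaled to a fixed total per library. The 6 B cell markers summed to at most 7.1 TPM and the 11 myeloid and dendritic cell markers to at most 7.38 TPM, with 5 and 7 of them under 1 TPM in every library. The 5 CD4 T cell and NK cell markers summed to at most 26.67 TPM. The repeat peptide DMSO library of experiment B stood apart from the other 3 of its group, with 40 of the 41 tested interferon stimulated genes below the group mean, so the number of called genes in each comparison is also given without all libraries of experiment B.

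Promoter sequences of 32 of the 43 genes were found in RefSeq, as windows from 250 bases before to 50 bases after the transcription start (GRCm38.p6). The ISRE core GAAANNGAAA, searched on both strands, was present in a window of 16 of these 32 genes (50%), against 3.99% of all 27025 genes with a window. The GAS motif TTCNNNGAA, which reads the same on both strands, was present for 7 of the 32 (21.9%) against 9.55% of all genes. The 7 stretches printed next run to the last base before the transcription start, with ISRE matches in capitals. They were chosen because they hold 2 pairs of close relatives (Ifit3 with Ifit3b, Oas1a with Oas1g), a gene called higher with ibrutinib (Ifit1bl1, the more upstream of its 2 windows), and 2 other genes with several matches (Isg15 and Bst2).
Isg15 (chr4:156200819-156200938, minus strand): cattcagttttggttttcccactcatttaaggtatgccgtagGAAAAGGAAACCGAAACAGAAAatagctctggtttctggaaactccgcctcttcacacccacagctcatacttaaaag
Oas1a (chr5:120907526-120907645, minus strand): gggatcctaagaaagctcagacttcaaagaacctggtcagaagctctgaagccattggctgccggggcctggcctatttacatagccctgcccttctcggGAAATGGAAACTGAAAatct
Oas1g (chr5:120887614-120887733, minus strand): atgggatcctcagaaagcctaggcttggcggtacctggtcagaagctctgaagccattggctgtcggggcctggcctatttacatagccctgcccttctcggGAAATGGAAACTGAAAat
Ifit3 (chr19:34583363-34583528, plus strand): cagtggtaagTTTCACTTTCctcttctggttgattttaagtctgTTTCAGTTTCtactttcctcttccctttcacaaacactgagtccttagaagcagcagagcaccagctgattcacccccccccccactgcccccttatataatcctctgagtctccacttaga
Ifit3b (chr19:34607759-34607956, plus strand): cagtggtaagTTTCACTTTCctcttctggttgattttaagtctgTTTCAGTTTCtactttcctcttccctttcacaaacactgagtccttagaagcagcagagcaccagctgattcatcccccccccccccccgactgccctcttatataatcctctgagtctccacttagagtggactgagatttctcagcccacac
Ifit1bl1 (chr19:34601969-34602088, minus strand): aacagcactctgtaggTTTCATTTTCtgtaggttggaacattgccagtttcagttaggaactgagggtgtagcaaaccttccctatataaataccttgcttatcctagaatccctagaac
Bst2 (chr8:71537473-71537612, minus strand): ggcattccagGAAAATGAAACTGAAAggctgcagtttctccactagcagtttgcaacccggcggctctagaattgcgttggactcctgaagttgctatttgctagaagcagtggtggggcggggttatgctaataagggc
Isg15 held 3 overlapping matches from 78 to 57 bases before its start, and Oas1a and Oas1g held 2 overlapping matches close to theirs. Although both share this stretch, Oas1a was expressed in every library and Oas1g had almost no counts. Ifit3 and Ifit3b held the same 2 matches at the same spacing. Of the 12 genes called in an ibrutinib comparison below, Parp12, Xaf1 and Oasl2 had a window without this core, and Eif2ak2 had it only after its start. No window was found for Dhx58, Mx1, Parp9, Rtp4, Usp18 and Zbp1.

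Levels per transcript length, in the authors' TPM, differed widely between the genes. Ifi27l2a, which codes for a small membrane protein, and Ifitm1 were the highest. Ifi27l2a had a mean of 2206 TPM in repeat peptide cells with DMSO, 1298 with ibrutinib, 697 in single peptide cells with DMSO and 497 with ibrutinib. Ifitm1, Ifitm2 and Ifitm3 code for membrane proteins that hinder viral entry. Ifitm1 had the higher mean of the pair in all groups but repeat peptide cells with DMSO, and ranged from 535 to 2171 TPM over the 18 libraries, Ifitm2 from 69.7 to 413 and Ifitm3 from 24 to 208. Bst2 codes for tetherin, which holds budding virus at the cell surface, and ranged from 113 to 236 TPM. The DNA binding protein gene Ifi203 (from 59.6 to 202), the giant ubiquitin ligase gene Rnf213 (from 35.2 to 169.7) and the secreted glycoprotein gene Lgals3bp (from 53.7 to 163) were also high.

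The RNA sensors were expressed at moderate levels. Ddx58 (RIG-I) ranged from 16.3 to 61.6 TPM, Dhx58 (LGP2) from 7.7 to 38.2 and Ifih1 (MDA5) from 2.16 to 11.8, while Zbp1, a sensor of Z-form nucleic acids, ranged from 48.3 to 118. Among the oligoadenylate synthetases, which make the messenger that activates RNase L, Oas3 was the highest (from 12.5 to 54), whereas Oas1a ranged from 1.13 to 9.88 and Oas2 from 0.04 to 1.37. At the low end, Rsad2 (viperin) ranged from 0.32 to 1.49 TPM, Oasl1 from 0 to 0.93, Ifi44 from 0 to 3.09 and Ifi204 from 0 to 0.36. Oas1g was at 0 in all libraries but 1, in which it reached 0.05 TPM, and was not tested. Oas1b, a polymorphic pseudogene in the annotation, ranged from 5.93 to 22.6 TPM and could be tested only when all gene types were kept.

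**Figure D1:**
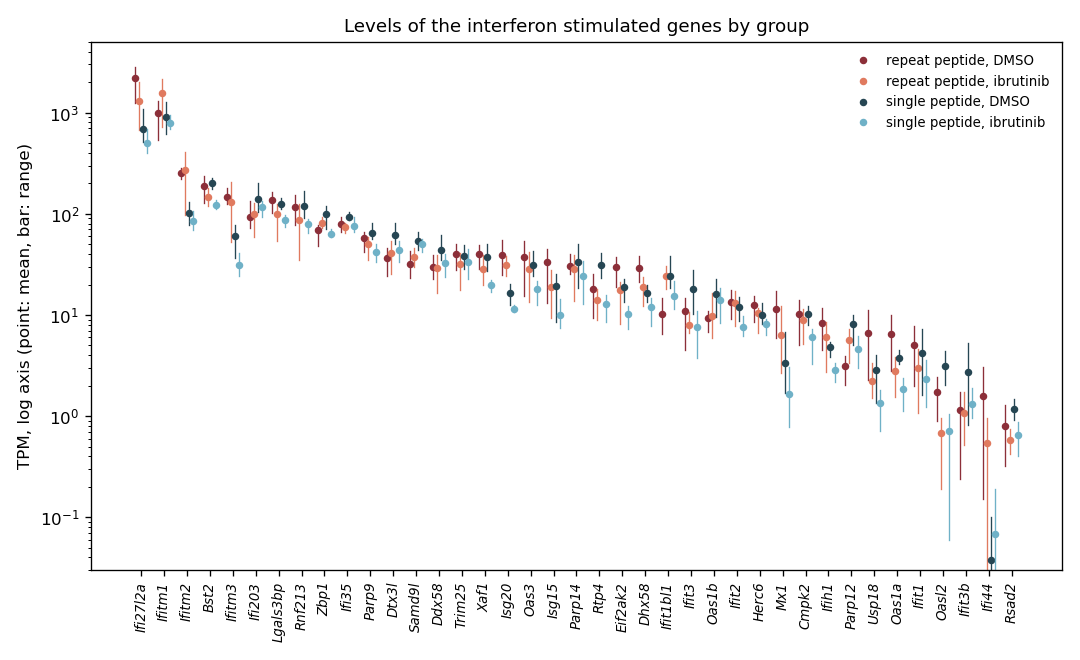
Level of 39 of the 43 interferon stimulated genes in TPM on a log axis, with the mean (point) and the range (bar) of the 4 or 5 libraries of each group and genes in order of their highest group mean. Bars are drawn down to 0.03 TPM at the lowest, and genes with a mean under 1 TPM in all groups (Oas2, Oasl1, Oas1g and Ifi204) are left out. Ifi27l2a and Ifitm1 lie highest, and Ifi44 is at most 0.19 TPM in the single peptide libraries.

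In single peptide stimulated cells, interferon stimulated genes were lower with ibrutinib. A gene was called changed when its Benjamini-Hochberg adjusted p over all tested genes was under 0.05 in edgeR's quasi-likelihood test, its mean normalized count over the 18 libraries was at least 50 and its absolute log2 fold change exceeded 0.2. Of the 41 genes, 7 fell (17.1%) and 0 rose, against 2.69% of all tested genes called lower and 0.351% called higher. Among the 41 the fold change was negative for 39, with a median of -0.62 (log2) against 0.01 for all tested genes, and 25 had an unadjusted p under 0.05. All ibrutinib libraries lay below all DMSO libraries for 15 of them, against 3.42% of all tested genes. Among the tested genes with a promoter window, the 15 with an ISRE match had a median of -0.73, with 1 called lower, the 16 without one -0.43, with 2 called lower, and the 10 without a window -0.72, with 4 called lower. This is a description without a test. In bulk RNA, fewer cells expressing a gene and less RNA per cell cannot be told apart.

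The 7 that fell were Eif2ak2, Mx1, Oasl2, Parp9, Rtp4, Xaf1 and Zbp1. Values are normalized counts, that is expected counts scaled to a common library size after TMM, in the order of experiments A, B, C, D and F for DMSO and A to D for ibrutinib. Eif2ak2 codes for PKR, a kinase that stops translation on binding double-stranded RNA. It had 1733, 1439.8, 1402, 1681 and 1676 normalized counts with DMSO and 1028, 1026, 834 and 1000.3 with ibrutinib. The groups were apart, with all 4 ibrutinib libraries below the lowest DMSO library (log2 fold change -0.71 ± 0.14 SE, adjusted p = 0.0104). Mx1 had 230.3, 150.4, 143, 138 and 339 with DMSO and 117, 102, 64.9 and 92.4 with ibrutinib. Its DMSO library of experiment F was highest and the groups did not overlap (-1.09 ± 0.28, adjusted p = 0.038). Oasl2, a relative of the oligoadenylate synthetases, had 136, 87.6, 172, 168 and 76.7 with DMSO and 25.6, 21.5, 3.71 and 38 with ibrutinib. This was the largest fitted fall among them (-2.53 ± 0.58, adjusted p = 0.0216), at low counts.

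Zbp1 had 3171, 1946, 2567, 3339.6 and 2582 normalized counts with DMSO and 1777, 1381, 1481 and 1796 with ibrutinib, without overlap (-0.76 ± 0.17, adjusted p = 0.0214). Parp9, an ADP-ribosyltransferase family member that works with the ubiquitin ligase Dtx3l, had 4618, 3762, 4485, 4642 and 4091 with DMSO and 3298, 2696, 2929 and 3297 with ibrutinib. The fall was small but the groups were apart (-0.50 ± 0.11, adjusted p = 0.0156). Rtp4, which restricts some RNA viruses, had 1204, 734, 1087, 1464 and 817 and 470.3, 349, 354 and 626. Its ibrutinib libraries were all below the DMSO libraries, with experiment D highest in both groups (-1.24 ± 0.28, adjusted p = 0.0211). Xaf1, a promoter of apoptosis, had 1360.0, 942, 981, 1091 and 1108 and 543, 579.8, 568 and 795. Again no library crossed between the groups (-0.82 ± 0.16, adjusted p = 0.00882).

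Within each of the 4 experiments that had both libraries, all 7 were lower with ibrutinib. Over the 41 genes the median within-experiment difference was -0.72, -0.47, -0.66 and -0.57 (log2) in experiments A, B, C and D, and 32 genes were lower in all 4. The share of all tested genes lower in all 4 was not computed. The experiments were taken to pair the libraries, and the experiment was also entered in the fit as a replicate block. With this block, 24 of the 41 genes fell and 0 rose, against 6.32% and 2.77% of all genes. These 24 held all 7. The 17 others included Bst2 (-0.80, adjusted p = 3.47e-05), Ifitm3 (-1.21, adjusted p = 0.000197), Ifi27l2a (-0.85, adjusted p = 0.00224), Ifit2 (-0.63, adjusted p = 0.00222), Ifit3 (-1.23, adjusted p = 0.00658), Lgals3bp (-0.44, adjusted p = 0.0043) and Isg15 (-0.92, adjusted p = 0.0111). Ifitm3 ranged from 290.1 to 725 normalized counts with DMSO and from 220.0 to 327 with ibrutinib. Bst2 ranged from 1808 to 2842 and from 1155 to 1579, and Isg15 from 89.8 to 346 and from 82.4 to 189. The other 10 were Ifit1bl1, Isg20, Oas1a, Ifi35, Ddx58, Dhx58, Parp12, Dtx3l, Cmpk2 and Rnf213, with adjusted p from 0.00992 to 0.0492.

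Without the block, the count of 7 depended on single libraries. It was 2 without the ibrutinib library of experiment B, 4 without that of experiment A, 11 without the DMSO library of experiment B and 6 without experiment B altogether. DESeq2's Wald test called 16, all lower. For these fits and those like them below, the shares of all genes called are not given. The counts therefore show only how far the calls depend on the setting. Xaf1 and Eif2ak2 were called whichever library was left out. Parp9 lost its call without ibrutinib B (adjusted p = 0.0592), Zbp1 without DMSO A or D or ibrutinib B (up to 0.0735), and Oasl2 without DMSO C or ibrutinib A or B (up to 0.0702). Rtp4 lost it without DMSO D or ibrutinib A, B or C (up to 0.0705), and Mx1 without DMSO A or F or any of the 4 ibrutinib libraries (up to 0.116). Mx1 and Oasl2 also lost it without experiment B, and Mx1 with only the compared groups in the fit and with the length offset described below.

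A further 3 genes, called in repeat peptide cells, did not pass in single peptide cells without the block, and Oas1a and Dhx58 passed with it (adjusted p = 0.0261 and 0.0335). Dhx58 had 789, 621, 834, 845 and 779.6 normalized counts with DMSO and 629.5, 539, 510.0 and 556 with ibrutinib (-0.47 ± 0.17, adjusted p = 0.178). Oas1a had 147, 139.5, 149, 229.6 and 142 and 66.4, 90.9, 59.4 and 109.9 (-0.99 ± 0.31, adjusted p = 0.106), without overlap. Usp18, the protease that removes ISG15 from proteins and restrains the interferon receptor, had 105, 49.8, 112, 153 and 146 and 52.1, 50.6, 34.3 and 84.2 (-1.03 ± 0.42, adjusted p = 0.249), with experiment B at the same level in both.

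**Figure D2:**
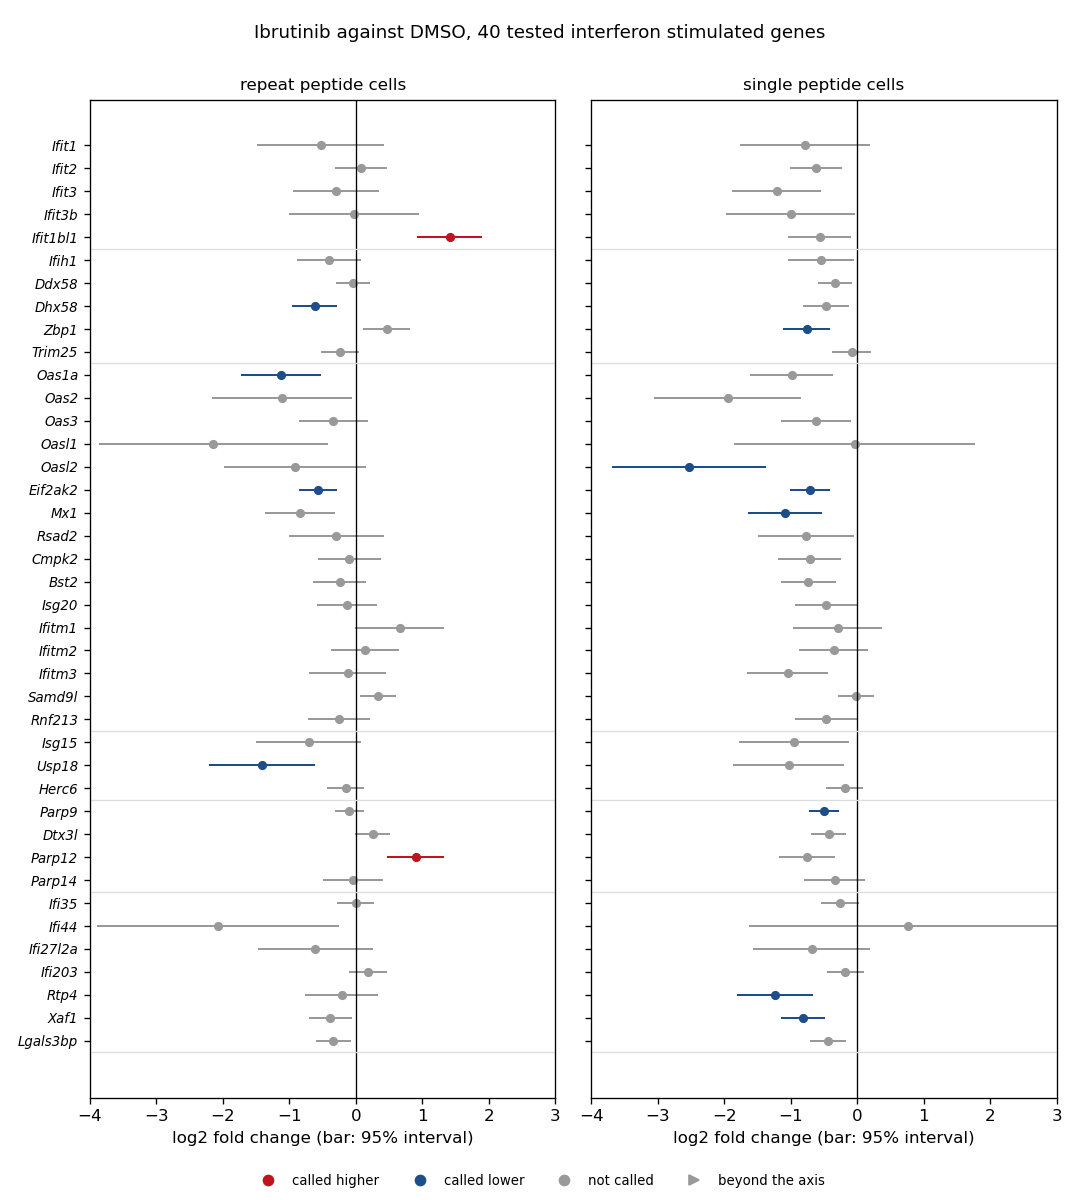
Log2 fold change of ibrutinib against DMSO in repeat peptide (left) and single peptide (right) stimulated cells for 40 of the 41 tested genes, grouped by role, with its 95% interval. Ifi204, with no counts in any single peptide DMSO library, is not drawn. In single peptide cells nearly all points lie left of 0, whereas in repeat peptide cells the called genes lie on both sides, with Ifit1bl1 and Parp12 to the right.

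In repeat peptide stimulated cells 6 of the genes passed the test with ibrutinib without the block, and 12 with it, as given below. Of the 41, 4 fell (9.76%) and 2 rose (4.88%), against 1.92% of all tested genes called lower and 4.01% called higher, so that the share that rose was near that of all genes. Fold changes were negative for 32 of the 41, with a median of -0.25 (log2) against 0.00 for all tested genes, and 14 had an unadjusted p under 0.05. Those that fell were Eif2ak2, Dhx58, Oas1a and Usp18, and those that rose were Ifit1bl1 and Parp12.

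Values are given in the order of experiments A to D for DMSO and A to E for ibrutinib. Dhx58, whose product LGP2 modulates RIG-I and MDA5, had 1376, 879, 1705 and 1211 normalized counts with DMSO and 902, 642, 1039.5, 914 and 711 with ibrutinib. The DMSO library of experiment B lay among the ibrutinib libraries (-0.62 ± 0.17, adjusted p = 0.0309). Eif2ak2 had 2472, 1619, 2428 and 2459 with DMSO and 1643, 1449, 1638, 1726 and 1089 with ibrutinib, and again only experiment B made the groups overlap (-0.57 ± 0.14, adjusted p = 0.0181). Oas1a had 216, 111, 359 and 279 and 92.2, 80.8, 151, 140.5 and 84.5 (-1.13 ± 0.30, adjusted p = 0.0277). Usp18 had 214, 83.9, 372 and 232 and 57, 46.6, 109, 129.9 and 79.7, the largest fitted fall of the 4 (-1.41 ± 0.40, adjusted p = 0.0402). In both genes the DMSO library of experiment B lay within the range of the ibrutinib libraries, and all other DMSO libraries lay above it. All 4 genes were lower with ibrutinib in A, B, C and D taken one by one.

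The 2 that rose had groups without overlap. Of the 41 genes, 2 had all ibrutinib libraries above all DMSO libraries and 0 had them below. Among all tested genes these shares were 4.64% and 5.43%, so the share above was near that of all genes. Ifit1bl1, a mouse relative of Ifit1 in the IFIT cluster of chromosome 19, had 600.2, 315, 493 and 411 with DMSO and 1112, 733, 1025, 1530.2 and 1639 with ibrutinib (1.41 ± 0.24, adjusted p = 0.00159). Parp12, an ADP-ribosyltransferase that inhibits translation, had 187, 148, 273 and 257 and 471, 406, 338, 455 and 348 (0.90 ± 0.21, adjusted p = 0.0141). Both were higher with ibrutinib within each of experiments A to D and kept their call whichever library was left out. Without all libraries of experiment B, the call of Ifit1bl1 held and that of Parp12 did not (adjusted p = 0.0796).

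The experiments differed more here than in single peptide cells. The median within-experiment difference over the 41 genes was -0.29, 0.16, -0.42 and -0.02 (log2) in experiments A, B, C and D, and 10 genes were lower and 5 higher in all 4. The median fitted fold change of -0.25 was -0.10 without DMSO C and -0.40 without DMSO B. With the experiment as a replicate block, 8 of the 41 genes fell and 4 rose, against 5.35% and 8.47% of all genes. The block kept all 6 and added falls of Ifi27l2a (-0.89, adjusted p = 0.00126), Mx1 (-0.73, adjusted p = 0.023), Bst2 (-0.30, adjusted p = 0.027) and Isg15 (-0.71, adjusted p = 0.0299) and rises of Zbp1 (0.39, adjusted p = 0.0181) and Dtx3l (0.32, adjusted p = 0.049). Isg15 codes for a ubiquitin-like protein that is attached to viral and host proteins.

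The block held all 4 falls (adjusted p from 0.00674 to 0.0147), but libraries were not left out under it. In fits without the block, the 4 falls depended on single libraries. None of them was called without the DMSO library of experiment C or without that of experiment D, which left 2 genes called, and 3 genes were called without DMSO A or without ibrutinib A, B or E. Without DMSO B, 9 genes were called, 7 of them lower, and without experiment B altogether 6, with 5 lower and 1 higher. Eif2ak2 lost its call without DMSO A, C or D (adjusted p up to 0.0761), and Oas1a without DMSO C or D or ibrutinib A, B or E (up to 0.138). Dhx58 (up to 0.15) and Usp18 (up to 0.184) lost it without DMSO A, C or D or ibrutinib A, B or E. With only these 2 groups in the fit, 3 genes were called, 2 higher and 1 lower, and the 4 falls were lost. The length offset also ended the call of Dhx58. Mx1 had 669, 379, 706 and 568 with DMSO and 329, 431, 319, 313 and 233 with ibrutinib and did not pass without the block (-0.84 ± 0.26, adjusted p = 0.0621).

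The other genes called in single peptide cells did not pass in repeat peptide cells. Oasl2 had 52.3, 21.7, 118 and 50.2 with DMSO and 40.02, 17.1, 36.9, 53.5 and 10.7 with ibrutinib (-0.92 ± 0.54, adjusted p = 0.337). Parp9 had 3753, 2869, 4051 and 3789 and 3398, 2917, 3566, 3723 and 3275 (-0.10 ± 0.11, adjusted p = 0.634). Rtp4 had 532, 299, 732 and 522 and 450.0, 239, 569.5, 573 and 409, with wide overlap (-0.22 ± 0.28, adjusted p = 0.698). Xaf1 had 877, 585, 1110.4 and 925 and 713, 669, 697, 683 and 590.3, with DMSO B as the lowest of all 9 libraries (-0.38 ± 0.16, adjusted p = 0.161).

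**Figure D3:**
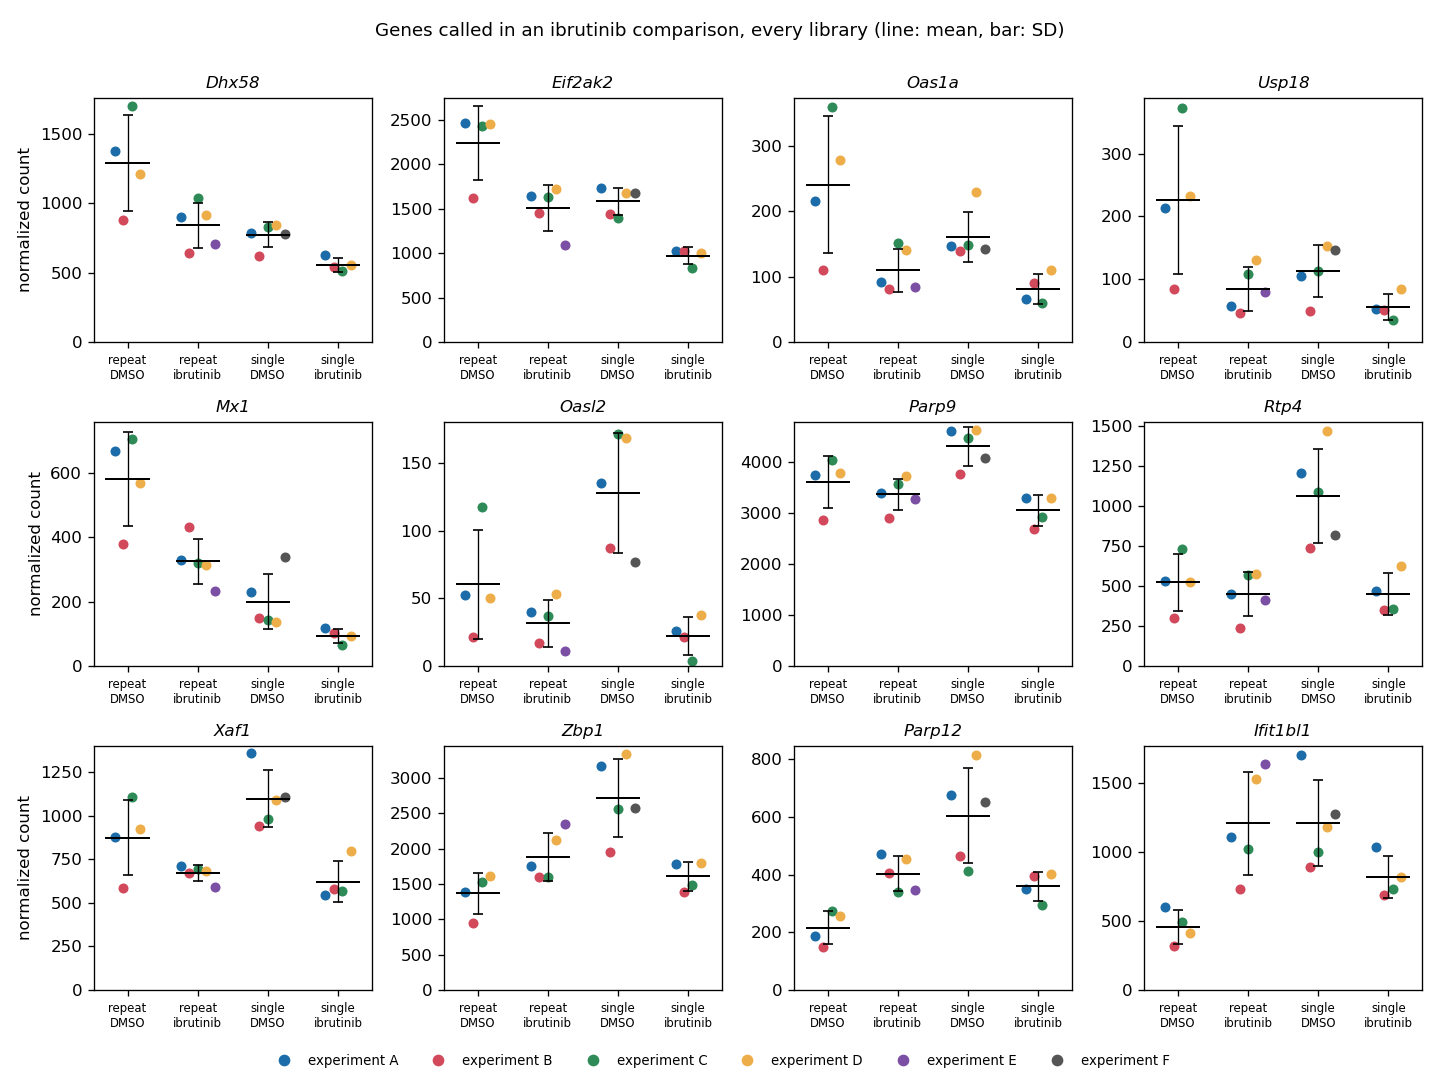
Normalized counts of the 12 genes called in an ibrutinib comparison or in the difference of the ibrutinib effects, in each of the 18 libraries by group, with the mean (line) and SD (bar) and coloured by experiment. The repeat peptide DMSO library of experiment B lies lowest of its group for each of the 12 genes, and Zbp1, Parp12 and Ifit1bl1 are lowest in repeat peptide cells with DMSO.

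The ibrutinib effects themselves differed between repeat and single peptide cells for 3 of the 41 genes, Ifit1bl1, Parp12 and Zbp1. Each effect was more positive in repeat peptide cells, against 1.04% of all tested genes called in this direction and 0.212% in the other. Over the 41 genes the difference was positive for 34, with a median of 0.34 (log2) against 0.02 for all tested genes. For Ifit1bl1 the difference of the effects was 1.97 ± 0.33 (log2, SE) at an adjusted p of 0.00433. Single peptide cells had 1702, 892, 1002, 1178 and 1275 normalized counts with DMSO and 1034, 689, 734 and 821 with ibrutinib (-0.56 ± 0.23, adjusted p = 0.273), so the 2 effects had opposite signs. Parp12 (difference 1.65 ± 0.30, adjusted p = 0.00626) had 677, 463, 412, 814 and 653 with DMSO and 349.9, 394, 293 and 401 with ibrutinib in single peptide cells, where no library crossed (-0.75 ± 0.21, adjusted p = 0.0573). Zbp1 (difference 1.22 ± 0.24, adjusted p = 0.0143) had 1388, 947, 1527 and 1607 with DMSO and 1761, 1601, 1593, 2118 and 2345 with ibrutinib in repeat peptide cells (0.46 ± 0.17, adjusted p = 0.119).

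Leaving out each of the 18 libraries in turn, or experiment B, changed none of these 3 calls. Zbp1 lost its call in this difference, and in single peptide cells, when counts were offset for the deposited effective length (adjusted p = 0.141 and 0.176). That length was 809 ± 56, 871 ± 99.6, 998 ± 138 and 867 ± 113 bases (mean ± SD) in the repeat DMSO (n = 4), repeat ibrutinib (n = 5), single DMSO (n = 5) and single ibrutinib (n = 4) libraries. The block gave 9 calls, all with the more positive effect in repeat peptide cells, against 4.45% of all genes in this direction and 1.09% in the other. It added Ifitm3 (1.17, adjusted p = 0.00703), Rtp4 (1.09, adjusted p = 0.0135), Ifit2 (0.80, adjusted p = 0.00957), Dtx3l (0.75, adjusted p = 0.00608), Bst2 (0.49, adjusted p = 0.0259) and Parp9 (0.43, adjusted p = 0.0148). For Eif2ak2 (0.13 ± 0.20, adjusted p = 0.894), Dhx58 (-0.15 ± 0.24, adjusted p = 0.901), Oas1a (-0.15 ± 0.43, adjusted p = 0.958) and Mx1 (0.25 ± 0.38, adjusted p = 0.896) a difference between the 2 effects was not detected.

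Repeat and single peptide cells with DMSO differed in 20 of the 41 genes, 9 higher (22.0%) and 11 lower (26.8%) in repeat peptide cells, close to the 22.8% and 24.2% of all tested genes. This comparison shares its DMSO libraries with the ibrutinib comparisons above. Those that rose were Dhx58, Eif2ak2, Ifi27l2a, Ifih1, Ifitm2, Ifitm3, Isg20, Mx1 and Usp18. Those that fell were Ddx58, Dtx3l, Ifi203, Ifi35, Ifit1bl1, Ifit3, Ifit3b, Parp12, Rtp4, Samd9l and Zbp1. The median over the 41 genes was -0.12 (log2), and -0.03 without the repeat DMSO library of experiment B. All repeat libraries lay above all single libraries for 5 of them and below for 8, against 22.3% and 19.1% of all tested genes.

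Among the genes called only by stimulation, the largest rises were those of Ifi27l2a, Ifitm2 and Ifitm3. Ifi27l2a reached 6097 ± 2385 (SD, n = 4) in repeat and 2441 ± 1379 (SD, n = 5) in single peptide cells, in normalized counts (1.32 ± 0.43, adjusted p = 0.0155), and its groups overlapped. Ifitm2 had 1631 ± 270.3 and 773 ± 197 (1.08 ± 0.25, adjusted p = 0.00159), and Ifitm3 had 1129 ± 268 and 552 ± 191 (1.03 ± 0.29, adjusted p = 0.00606), both without overlap. Isg20, an exonuclease that degrades RNA, followed (0.97 ± 0.22, adjusted p = 0.00134). The largest falls were those of Ifit3b, Samd9l and Ifit3. Ifit3 and Ifit3b, near copies whose shared reads RSEM divided between them in all 18 libraries, had 360.4 ± 138 and 45.4 ± 24.3 in repeat and 691 ± 250.3 and 124 ± 75.8 in single peptide cells (-0.94 ± 0.33 and -1.44 ± 0.50). Their calls were lost without repeat DMSO B or without single DMSO A or D (adjusted p up to 0.0733 and 0.0613). Samd9l, an antiviral factor that restrains translation, had 3845 ± 718 and 7423 ± 982 (-0.95 ± 0.13, adjusted p = 1.04e-05), with Dtx3l close behind (-0.94 ± 0.13, adjusted p = 9.79e-06).

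The 3 RIG-I like receptor genes did not move together: Dhx58 (0.74 ± 0.17, adjusted p = 0.00106) and Ifih1 (0.71 ± 0.24, adjusted p = 0.0191) were higher in repeat peptide cells, whereas Ddx58 was lower (-0.61 ± 0.13, adjusted p = 0.000501). Among genes already described, Mx1 was higher (1.54 ± 0.26, adjusted p = 9.45e-05) and Parp12 (-1.48 ± 0.21, adjusted p = 1.63e-05), Ifit1bl1 (-1.41 ± 0.24, adjusted p = 8.78e-05) and Rtp4 (-1.03 ± 0.28, adjusted p = 0.00481) were lower. Usp18 (up to 0.207 without repeat DMSO A, C or D or single DMSO A, B or C), Ifi35 (up to 0.068 without repeat DMSO A or B or single DMSO C or D), Ifih1 (0.122 without repeat DMSO C) and Ifi27l2a (0.0622 without repeat DMSO D) lost their call with a library left out. Without the low-count filter the calls of Usp18 and Ifi27l2a were lost, and with only the compared groups in the fit those of Usp18 and Ifit3b. Leaving out any 1 library gave 17 to 22 calls (18 without repeat DMSO B), omitting experiment B gave 21, and the block gave 25 (10 higher and 15 lower, against 26.2% and 27.4% of all genes), all 20 among them, with Isg15 added as higher and Oasl2, Bst2, Parp9 and Rnf213 as lower. The median within-experiment difference was -0.19, -0.48, 0.18 and -0.24 in experiments A, B, C and D.

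Ifi44 and Ifi204, both below the mean count of 50 and so not called, had an adjusted p under 0.05 in this comparison. Ifi44 had 9.87 to 179.7 normalized counts in the repeat DMSO libraries and 0 to 8.33 in the single DMSO libraries, and 0 to 57.4 and 0 to 16.4 with ibrutinib. Expected counts were fractional, from reads divided between genes, in 6 libraries for Ifi204 and in 16 for its relative Ifi203. Ifi204 had 0 to 16 normalized counts in the repeat DMSO libraries and no count in any of the 5 single DMSO libraries. With a limit of 3 counts per library, its repeat DMSO mean was thus at least 2.7-fold its single DMSO mean. This bound holds for the group means only, since in experiment B neither library had a count. With Ifi204 at that bound the median over the 41 genes stayed at -0.12. Oas1b, fitted with all gene types, was lower in repeat peptide cells with DMSO (-0.82, adjusted p = 0.0114) and with ibrutinib (-0.64, adjusted p = 0.0472), and passed in neither ibrutinib comparison.

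With ibrutinib in both, 13 of the 41 genes differed between repeat and single peptide cells, 10 higher (24.4%) and 3 lower (7.32%), against 18.7% and 19.6% of all tested genes, and their median was 0.27 (log2) against -0.02. The genes higher in repeat peptide cells were Dhx58, Eif2ak2, Ifi27l2a, Ifih1, Ifit2, Ifitm1, Ifitm2, Ifitm3, Isg20 and Mx1, and those lower were Ddx58, Ifi203 and Samd9l. Ifitm3 (1.95 ± 0.31, adjusted p = 6.75e-05), Mx1 (1.79 ± 0.28, adjusted p = 6.04e-05) and Ifitm2 (1.57 ± 0.26, adjusted p = 0.00012) had the largest rises. Parp12 (0.17 ± 0.21, adjusted p = 0.534), Zbp1 (0.23 ± 0.17, adjusted p = 0.299) and Ifit1bl1 (0.56 ± 0.23, adjusted p = 0.0602), all lower in repeat peptide cells with DMSO, did not pass here without the block. Ddx58 (-0.32 ± 0.12, adjusted p = 0.0456) lost its call without repeat ibrutinib B, C, D or E or single ibrutinib A, B or D and under 6 of the 7 other settings, the block being the one that kept it. Ifitm1 (0.85 ± 0.34, adjusted p = 0.048) lost it without repeat ibrutinib A, B or D or single ibrutinib A, B or C, without experiment B, without the low-count filter and with the length offset (adjusted p = 0.142, 0.124 and 0.0575). Also lost were Ifi27l2a, Ifi203 and Ifit2, each without any one of 2 or 3 libraries (adjusted p up to 0.0603, 0.0755 and 0.0826). Those were repeat D and single A or B for Ifi27l2a, which was also lost without the low-count filter (adjusted p = 0.0632), repeat E and single A or D for Ifi203, and repeat D and single B for Ifit2. Without experiment B 14 genes were called. The block gave 16 calls, 12 higher and 4 lower, against 22.5% and 26% of all genes. It added Ifit1bl1 (0.42, adjusted p = 0.0222) and Isg15 as higher and Ifi35 as lower, and the within-experiment medians were 0.19, 0.06, 0.49 and 0.34 in experiments A to D.

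**Figure D4:**
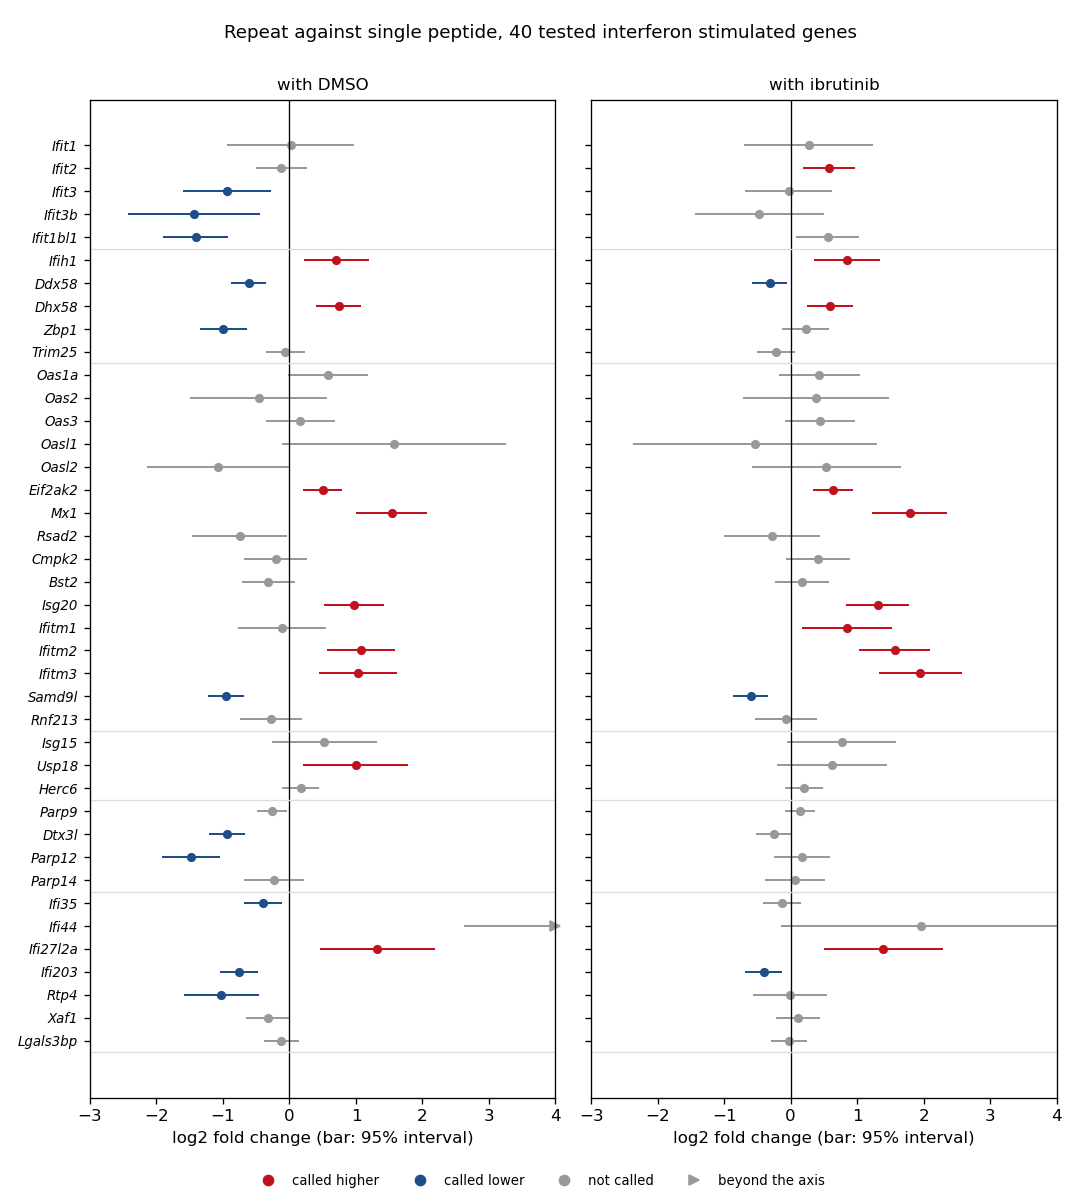
Log2 fold change of repeat against single peptide stimulated cells with DMSO (left) and with ibrutinib (right), with its 95% interval, for the same 40 genes. Ifitm2, Ifitm3, Isg20 and Mx1 lie to the right in both, and Ifit1bl1, Parp12 and Zbp1 lie to the left of 0 with their whole interval with DMSO but have their point to the right of 0 with ibrutinib.

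The median level of the 41 genes in a library, as log2 normalized count relative to each gene's mean over the 18 libraries, was compared between libraries. It was 0.37, 0.07, 0.20, 0.44 and 0.22 in the single peptide DMSO libraries of experiments A, B, C, D and F, and -0.27, -0.55, -0.52 and -0.03 with ibrutinib in A to D. All ibrutinib libraries lay below all DMSO libraries. In repeat peptide cells it was 0.28, -0.44, 0.46 and 0.17 with DMSO in A to D and -0.02, -0.27, 0.09, 0.24 and -0.17 with ibrutinib in A to E, so the groups overlapped. Experiment B was lowest in every group but the order of the others varied. These medians carry no test, since the genes of a library are not independent.

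**Figure D5:**
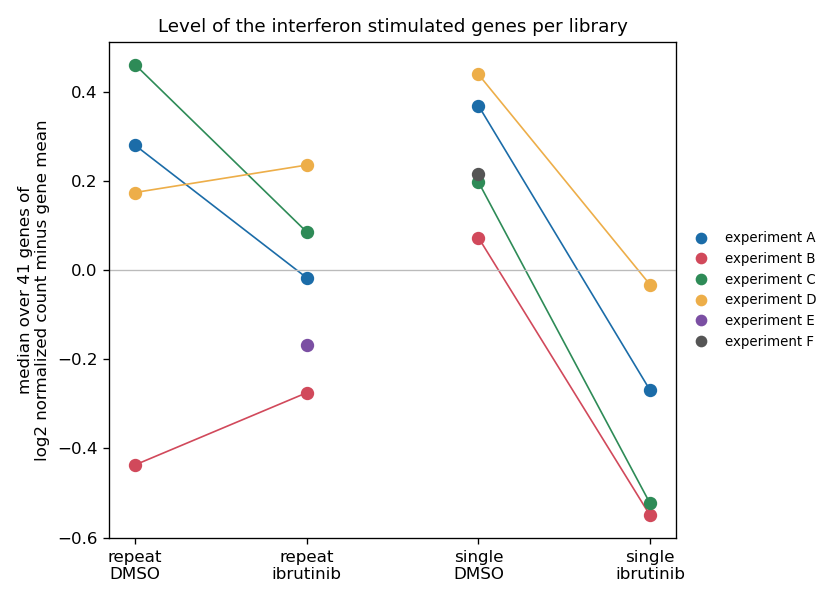
Median over the 41 tested genes of the log2 normalized count minus the gene's mean, for each of the 18 libraries, with lines that join the DMSO and ibrutinib libraries of an experiment. All 4 lines fall in single peptide cells, whereas in repeat peptide cells those of experiments A and C fall and those of B and D rise.

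The genes tended to deviate together from their group means. Over the 820 pairs of genes the median correlation of these deviations across the 18 libraries was 0.45, and 87.1% were positive, against a median of 0.00 and 50.1% for pairs of all tested genes. The 18 libraries include several of each of experiments A to D, and these correlations carry no test. Ifitm1 (r = -0.22 with the median of the other members), Parp14 (0.03), Ifitm3 (0.15), Ifi203 (0.20) and Ifitm2 (0.23) followed the others least. None of these 5 was called in an ibrutinib comparison without the block. Parp14 codes for an ADP-ribosyltransferase.

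The remaining 13 tested genes were called in no comparison without the block. They were Ifit1, Isg15, the oligoadenylate synthetase family members Oas2, Oas3 and Oasl1, Rsad2 with its neighbour Cmpk2, which supplies nucleotides, Bst2, the ISG15 ligase gene Herc6, the RIG-I activating ligase gene Trim25, Parp14, Rnf213 and Lgals3bp. In single peptide cells their log2 fold change with ibrutinib ranged from -1.95 for Oas2 to -0.03 for Oasl1, with Isg15 at -0.95 ± 0.41 and Bst2 at -0.73 ± 0.20 (adjusted p = 0.297 and 0.0526). In repeat peptide cells it ranged from -2.14 for Oasl1 to -0.04 for Parp14.

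Among the genes upstream of this response, 1 of the 11 listed interferon genes was tested, Ifng, and the type I and III interferon genes had few or no counts. Its repeat peptide libraries averaged 756 ± 342 normalized counts with DMSO (SD, n = 4) and 219 ± 102 with ibrutinib (SD, n = 5), and it fell (-1.78 ± 0.49, adjusted p = 0.036). Single peptide libraries averaged 46.1 ± 31.6 (SD, n = 5) and 7.99 ± 6.53 (SD, n = 4), with a fitted change of -2.51 ± 0.68 (adjusted p = 0.0494). Both of these means were under the count threshold of 50, which Ifng met only through its repeat peptide libraries, so no fall is claimed there. Its counts there were low, from 1.9 to 13.9 with ibrutinib. For Ifng and the other genes outside the list of 43, the alternative fits and the fits with a library left out were not examined. Of 5 tested interferon receptor genes, 2 rose with ibrutinib in repeat peptide cells, Ifnar2 (0.59 ± 0.16, adjusted p = 0.0278) and Ifngr2 (1.15 ± 0.26, adjusted p = 0.0126), 0 passed in single peptide cells, and all 5 were lower in repeat than in single peptide cells with DMSO. The shares over all tested genes given above for each comparison (4.01% higher and 24.2% lower for these) are the background for these counts.

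Of 5 feedback inhibitors, Ptpn6 fell in both settings (-0.48 in repeat and -0.68 in single peptide cells) and Socs3 rose in repeat peptide cells (1.35 ± 0.26, adjusted p = 0.0043). Of 11 tested sensing adaptors and kinases, Irf7, the factor that amplifies interferon production, fell in both (-0.72 ± 0.17, adjusted p = 0.0165 and -0.79 ± 0.18, adjusted p = 0.0189), Tlr7 fell (-1.32) and Ikbke rose (0.54) in repeat peptide cells.

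A list of 45 further interferon stimulated genes, of which 40 were tested, was counted in the same way. In repeat peptide cells 8 rose with ibrutinib and 1 fell, against 4.01% and 1.92% of all tested genes, with Gbp2 (1.59 ± 0.23, adjusted p = 0.000376), Ly6c2 (1.49 ± 0.30, adjusted p = 0.00478) and Samhd1 (0.92 ± 0.11, adjusted p = 0.000114) among those that rose beside Ly6a, Ifi209, Ms4a4b, Epsti1 and Sp110, and Tdrd7 the one that fell. Single peptide cells had 3 that fell (Gbp2, -1.23 ± 0.22, adjusted p = 0.00655, with Trafd1 and Sp110) and 0 that rose, against 2.69% and 0.351% of all tested genes. The effects differed between repeat and single peptide cells for 5 of them, Gbp2, Ly6c2, Ly6a, Samhd1 and Sp110, each more positive in repeat peptide cells, against 1.04% of all tested genes. With DMSO, 6 were higher and 22 lower in repeat than in single peptide cells (22.8% and 24.2% of all tested genes). With ibrutinib 8 were higher and 10 lower (18.7% and 19.6% of all tested genes). The median effect of ibrutinib over these 40 genes was 0.11 in repeat and -0.20 in single peptide cells (log2).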

How the data were processed

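RNA-seq of 18 libraries in 4 groups was analysed, with groups taken from the sample labels. The authors trimmed the reads and mapped them to GRCm38 with STAR inside RSEM 1.3.1. They deposited a table of 45706 genes per library with expected counts, which are estimated counts that share reads fitting several genes, with TPM values, scaled to a fixed total per library, and with effective lengths. After rounding the expected counts, 27903 genes that GENCODE M21 lists as protein-coding or lncRNA were kept (98.5% of counts). The deposited TPM values describe levels only, and the deposited effective lengths (in bases) served only as an offset in an alternative.

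With R 4.3.3 and edgeR 4.0.16, genes were filtered (filterByExpr), scaled (TMM) and fitted in 1 model of all 4 groups (glmQLFit, robust). Groups were compared with glmQLFTest. DESeq2 1.42.0 gave an alternative. Thresholds were an adjusted p of 0.05, a mean normalized count of 50 and an absolute log2 fold change of 0.2. The test was checked on simulated counts drawn without an experiment effect. It called 66.7% of the changed genes at an absolute log2 fold change of 1 and 84.8% at 2, with 1 unchanged gene called. This check does not cover differences between experiments. Intervals are 1.96 SE to each side.

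The experiment was taken to pair libraries, since all 24 pairs of the same experiment in different groups had deviations correlated above 0.1 (0.138 to 0.461, median 0.30), against a median of -0.07 for the 97 other pairs. Whether cultures came from separate mice is not stated in the labels, so p-values measure the spread between these cultures. Within groups, no library was a copy of another (chi-square per degree of freedom of at least 27.0 over the 32 pairs of the same group). Libraries of different groups were not compared in this way. At this depth counting error is small except for genes with a few counts.

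The 43 genes, the pathway lists and the tests were chosen with earlier results of these data known. Genes called in an ibrutinib comparison or in the difference of the effects are given in every library, those called only by stimulation by group and by the 3 largest changes in each direction, and all others by range or count. Promoter windows come from RefSeq (GRCm38.p6), and 11 genes had none. The alternatives tried were DESeq2's Wald test, its size factors, all genes without the expression filter, only the compared groups, the block, no threshold on the mean count, the length offset and each library left out, with all gene types and no experiment B added after seeing the data. The list of signal transducers is not reported here.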

Additional observations from a re-analysis of the deposited data

Results flagged for a closer look

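The ibrutinib effect differed between repeat and single peptide stimulated cells, by a test of the difference itself, for 3 genes. It was 1.97 (log2) more positive in repeat peptide cells for Ifit1bl1, 1.65 for Parp12 and 1.22 for Zbp1.

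A library lay far from the others of its group, by the gap to its nearest neighbour relative to the group's whole range, in 9 of 148 groups of libraries examined over 37 genes with a mean normalized count of at least 50. Chance gives about 1 in 20. In repeat peptide cells with DMSO, experiment B was low for Eif2ak2 (1619 normalized counts against 2428 for the next library) and for Isg15 (132 against 352). In repeat peptide cells with ibrutinib, experiment C was high for Ifit3b (73.9 against 40.95). In single peptide cells with DMSO, experiment D was high for Ifi27l2a (4863 against 2109) and for Oas1a (229.6 against 149). In single peptide cells with ibrutinib, experiment D was high for Isg15 (189 against 91.8) and for Xaf1 (795 against 579.8), experiment C was low for Eif2ak2 (834 against 1000.3), and experiment B was low for Ifi35 (1678 against 2164).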

How the results depend on the processing

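The median over the genes kept its sign in every comparison under each alternative. The counts of called genes that moved by more than 1.5 times were these. With ibrutinib in repeat peptide cells the 6 calls became 3 with only the compared groups in the fit and 12 with the replicate block. With ibrutinib in single peptide cells the 7 calls became 16 with DESeq2's Wald test and 24 with the block. For the difference of the effects the 3 calls became 9 with the block. The block lost no call, and it left the counts by stimulation within 1.5 times of the main ones, at 25 with DMSO and 16 with ibrutinib. Leaving out each library in turn gave 2 to 9 calls with ibrutinib in repeat peptide cells, 2 to 11 in single peptide cells, 17 to 22 and 9 to 13 for the effect of stimulation (DMSO, then ibrutinib), and 3 throughout for the difference. Apart from the block, the shares of all genes called under these alternatives are not given here. Of 808 recomputed fold changes of called genes 706 kept the call, 102 lost it (76 with a library left out) and 0 changed sign, and the cause was not tested. Oasl2, Oas2, Ifit3b, Ifi44 and Ifi204 had few counts, which limits the precision of their fold changes.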
